A study of Homo sapiens with 4 samples.

Results

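The enzymes that write DNA methylation and those that remove it were followed between the naïve and the primed state of human embryonic stem cells (hESCs) in Nanopore cDNA libraries. The set was chosen by name, with no rule on measured values, although earlier results of these data were known. It held 10 genes of the 62218 genes with a matched transcript. It comprised DNMT1, UHRF1 and UHRF2, DNMT3A, DNMT3B and DNMT3L, TET1, TET2 and TET3, and TDG, with 124 transcripts of 242542. The level of a gene was the count of alignments on its transcript with the largest mean count, scaled by TMM (trimmed mean of M-values) to CPM, the counts in every 1000000 of the library. All 10 genes passed the filter, which asked for 10 or more counts in 2 or more libraries.

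In mammals, methyl groups are placed on cytosines that precede guanines. DNMT3A and DNMT3B set new marks, DNMT3L stimulates them without being a methyltransferase itself, and DNMT1, brought to newly replicated DNA by UHRF1, copies marks from the old strand to the new. TET enzymes oxidise the methyl group and TDG excises the most oxidised forms, so that base excision repair can restore an unmethylated cytosine. Naïve hESCs are known for low genomic methylation and primed hESCs for high methylation.

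All 4 libraries came from wild-type H1, an established hESC line. The 2 naïve libraries came from H1-derived cells in FINE culture, a medium with kinase inhibitors, LIF, activin A and bFGF under low oxygen, collected at 50% confluency. The 2 primed libraries (labelled TesR) came from H1 cells in mTeSR1 on Matrigel, collected at 60% to 70% confluency. Culture medium and cell state therefore cannot be told apart, and the labels do not say that replicates were separate cultures, so p-values measure only the spread between these libraries, which may be technical.

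The libraries held between 129276054 and 161548901 counts over all transcripts. The state labels were checked on marker genes. All 7 naïve markers other than DNMT3L had higher CPM in the naïve libraries, with summed levels of 1030 and 894 CPM against 76.5 and 78.2 CPM in the primed libraries. Most of the naïve sums was DPPA5, at 725 and 599 CPM, and most of the primed sums was KLF17, at 70.7 and 72.9 CPM. The log2 fold change of KLF17 was only −0.41 and turned to 0.23 with library size in place of TMM. All 6 primed markers were higher in the primed libraries, with summed levels of 765 and 675 CPM against 144 and 139 CPM. Most of these sums was CD24, at 609 and 526 CPM in the primed libraries against 143 and 137 CPM in the naïve ones. THY1 and SFRP2 had 0 counts in the naïve libraries. Of the 4 shared pluripotency markers, SOX2 (log2 fold change 2.38) and LIN28A (2.11) were higher in the primed cells and NANOG (−1.62) was lower. POU5F1 was at −0.05 and not called, and at 0.59 and called with library size in place of TMM. In bulk RNA, fewer cells of a type and less RNA per cell cannot be told apart.

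Of the 10 genes, 7 differed between the states by the quasi-likelihood test of edgeR (threshold, adjusted p of 0.05), against 70% of the 27633 genes tested, so the share of the set that differed was that of the background. In the primed cells 2 were higher (DNMT3B and UHRF2, against 37.4% of all genes) and 5 were lower (DNMT1, UHRF1, DNMT3L, TET1 and TET2, against 32.6%), and with library size in place of TMM DNMT1 was at 0.04 on the log2 scale, with overlapping states. The median log2 fold change, primed over naïve, was −0.45 for the set and 0.08 for all genes tested. With library size in place of TMM the median of all genes moved to 0.72, and 4 genes of the set were then higher and 2 lower. The libraries of the states did not overlap in CPM for 9 of the 10 genes, against 84.4% of all genes.

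**Figure D1:**
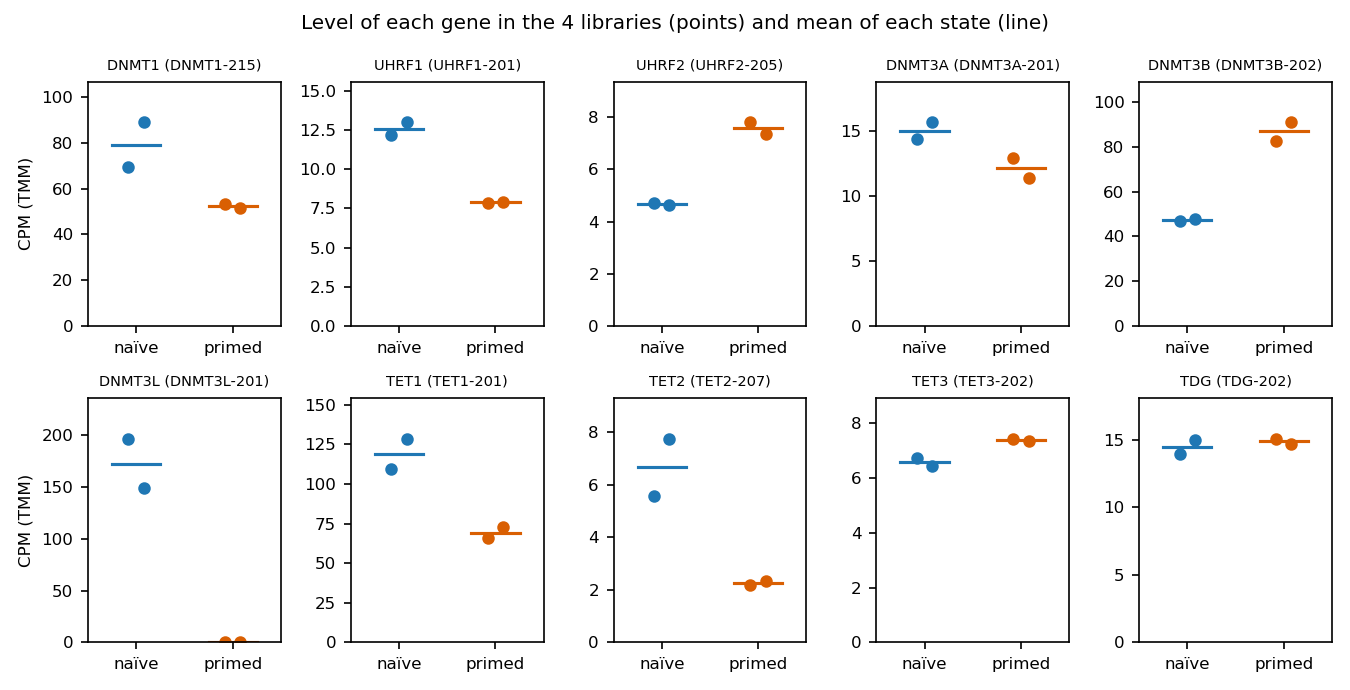
Level of each gene in CPM (TMM) in every library, with the transcript that stands for it in parentheses, points for libraries and a line for the mean of each state. The states overlap only for TDG, and DNMT3L in the primed libraries lies at 0.136 and 0.0652 CPM. On this scale DNMT1 and DNMT3A lie lower in the primed libraries, whereas with library size in place of TMM the states overlap for DNMT1 and DNMT3A lies higher.

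Where DNMT3A and DNMT3B begin is shown here because both genes have a distal and an inner start, and the share of alignments that stayed upstream of the inner start is described further on. The stretches are the 250 bases before each start, 5′ to 3′ on the strand of the gene, from RefSeq on GRCh38.p14, and capitals mark each CG, the pair of bases that these enzymes methylate. Of the distal starts of DNMT3A, that of DNMT3A-202, the main annotated transcript, is shown, and no stretch for the distal start of DNMT3B was found. The start of DNMT3A-202 is preceded by chr2:25341926-25342175 on the minus strand, the inner start of DNMT3A-203 by chr2:25252316-25252565 on the minus strand, and the inner start of DNMT3B-201 by chr20:32779602-32779851 on the plus strand.
DNMT3A-202: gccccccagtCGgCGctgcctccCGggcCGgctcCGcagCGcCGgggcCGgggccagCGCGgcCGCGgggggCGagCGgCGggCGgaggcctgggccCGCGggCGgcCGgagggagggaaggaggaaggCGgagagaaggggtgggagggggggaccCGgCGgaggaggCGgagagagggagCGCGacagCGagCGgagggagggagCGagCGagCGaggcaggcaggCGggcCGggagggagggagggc
DNMT3A-203: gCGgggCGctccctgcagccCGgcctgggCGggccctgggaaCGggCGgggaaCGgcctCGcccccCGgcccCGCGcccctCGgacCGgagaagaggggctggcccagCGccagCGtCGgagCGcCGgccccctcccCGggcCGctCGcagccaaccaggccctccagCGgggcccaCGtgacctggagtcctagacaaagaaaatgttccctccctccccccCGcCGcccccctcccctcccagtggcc
DNMT3B-201: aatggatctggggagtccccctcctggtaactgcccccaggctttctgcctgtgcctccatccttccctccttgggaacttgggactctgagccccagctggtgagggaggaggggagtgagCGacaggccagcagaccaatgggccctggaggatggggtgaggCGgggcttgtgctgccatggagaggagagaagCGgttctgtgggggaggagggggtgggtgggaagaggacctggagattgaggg
The CG pair occurs 33 times before DNMT3A-202, 25 times before DNMT3A-203 and 3 times before DNMT3B-201. At least as many occur before 8.15%, 21.6% and 77.1%, respectively, of all RefSeq starts, whose median is 11. The other distal starts of DNMT3A hold fewer, with 21 before DNMT3A-204 and 12 before DNMT3A-201. The letters GGGCGG, searched on both strands, occur 2, 3 and 0 times in these stretches and at least once before 42.6% of all starts. The CG of GGGCGG is itself among the pairs counted. RefSeq stretches were found for 9 of the 10 genes.

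DNMT1, the maintenance methyltransferase, was represented by DNMT1-215 (chr19:10173090-10231286, minus strand). It had 1607 and 2275 counts in the naïve replicates and 1575 and 1585 in the primed replicates, or 69.6 and 89.1 CPM against 53.5 and 51.6 CPM. Both primed libraries lay below both naïve libraries in CPM. The log2 fold change was −0.59 ± 0.15 (SE, edgeR adjusted p = 0.000486), but it was 0.04 with library size in place of TMM, and the call was lost without primed replicate 2, at −0.41.

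The span of DNMT1-215 reaches over S1PR2, a sphingosine 1-phosphate receptor gene with 437, 619, 415 and 505 counts in the order naïve 1, naïve 2, primed 1 and primed 2. The main annotated transcript of the gene, DNMT1-202, ends before S1PR2. DNMT1-202 had 1537 and 2088 counts in the naïve replicates and 1396 and 1375 in the primed replicates, and its log2 fold change was −0.69 ± 0.15. The alignments along DNMT1-202 were uneven. The span of DNMT1-221, 3063 bases on the 5′ side of DNMT1-202, held between 61.0% and 67.8% of them, while the span at the 3′ end, DNMT1-235, held between 13.8% and 17.7%.

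UHRF1, the protein that recognises hemimethylated DNA after replication and brings in DNMT1, had 281 and 332 counts on UHRF1-201 in the naïve replicates and 232 and 243 in the primed replicates. In CPM this was 12.2 and 13.0 against 7.87 and 7.92, with replicates closer to each other than the states. The log2 fold change was −0.67 ± 0.17 (edgeR adjusted p = 0.000604), and it was −0.04 and not called with library size in place of TMM. UHRF1 had no tested transcript without overlap of another gene. Among all genes tested, the changes of DNMT1 and UHRF1 stood at the percentiles 29.0 and 26.8.

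UHRF2, the relative of UHRF1 that does not replace it in maintenance methylation, lay on the other side. UHRF2-205 had 109 and 118 counts in the naïve replicates and 230 and 226 in the primed replicates, or 4.72 and 4.62 CPM against 7.81 and 7.36 CPM. The primed libraries were both higher, and the log2 fold change was 0.70 ± 0.19 (edgeR adjusted p = 0.00159). An antisense lncRNA inside the span had 42 and 45 counts in the naïve replicates and 97 and 103 in the primed replicates, and without strand its reads cannot be told apart from those of UHRF2. On UHRF2-212, a transcript over the 3′ part of the gene that no other gene overlaps, the counts were 53, 59, 86 and 75, the log2 fold change was 0.26 ± 0.25, and the gene was not called.

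DNMT3B, the de novo methyltransferase typical of the pluripotent epiblast, had the larger of the 2 increases in the primed cells. DNMT3B-202 (chr20:32762385-32809356, plus strand) had 1080 and 1222 counts in the naïve replicates and 2438 and 2791 in the primed replicates. This corresponded to 46.8 and 47.9 CPM against 82.8 and 90.9 CPM, and the primed libraries were far above both naïve libraries. On the log2 scale the fold change was 0.88 ± 0.14 (edgeR adjusted p = 1.02e-06), a 1.84-fold higher level. No other gene overlaps the span, and DNMT3B was called and higher under all 13 alternatives run, with log2 fold changes from 0.80 to 1.51.

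DNMT3A, the other de novo methyltransferase, did not pass the test. DNMT3A-201 (chr2:25227855-25342590, minus strand) had 333 and 401 counts in the naïve replicates and 382 and 350 in the primed replicates, or 14.4 and 15.7 CPM against 13.0 and 11.4 CPM. Its log2 fold change was −0.31 ± 0.16 (edgeR adjusted p = 0.0883, 95% interval −0.62 to 0.01), and it was 0.33 with library size in place of TMM. On DNMT3A-203, the transcript from the inner start and the largest without overlap of another gene, it was −0.53 ± 0.17 and past the threshold. A difference between the de novo enzymes in their response to the state was not tested.

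DNMT3L, the catalytically inactive partner that binds DNMT3A and DNMT3B, had by far the largest change of the set. DNMT3L-201 (chr21:44246339-44262216, minus strand) had 4540 and 3798 counts in the naïve replicates and 4 and 2 in the primed replicates. In CPM this was 197 and 149 against 0.136 and 0.0652, so the primed libraries were at or near the level of 3 counts, which is between 0.0978 and 0.130 CPM over the libraries. As a log2 fold change this was −10.69 ± 0.29 (edgeR adjusted p = 2.12e-31). From the 8338 naïve and 6 primed counts, the ratio of CPM was 1719, with an exact 95% interval from 790 to 4686 that covers counting error only.

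Most alignments of DNMT3L reached its 3′ side. The span of the 3′ transcript DNMT3L-203 held 95.2% and 95.3% of the alignments of DNMT3L-201 in the naïve libraries. DNMT3L-AS1, an antisense lncRNA gene inside DNMT3L, had 4191 and 3485 counts in the naïve replicates, or 92.3% and 91.8% of the count of DNMT3L-201, and 2 counts in each primed library. Since strand was not used in the counting, the alignments of DNMT3L and DNMT3L-AS1 cannot be told apart.

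Most trophoblast markers moved with DNMT3L, which placental cells can also express. Of 5 tested trophoblast markers 4 were lower in the primed cells, against 32.6% of all genes, and the summed level of the list was 1629 and 1964 CPM in the naïve libraries against 6.14 and 5.80 CPM. Most of this sum was CGA, the hormone subunit of the placenta, with 35747 and 47550 counts in the naïve replicates and 0 and 1 in the primed libraries. GATA2 had 619 and 985 counts against 4 and 3, GATA3 had 976 and 1151 against 15 and 16, and CDX2 had at most 4 counts in any library. KRT7 went the other way without being called, with 42 and 74 counts against 103 and 81 (log2 fold change 0.37 ± 0.26). With library size in place of TMM KRT7 was called higher in the primed cells, at 1.00. All 3 amnion markers were lower in the primed cells, with summed levels of 13.0 and 11.4 CPM against 4.65 and 3.16 CPM. ISL1 had 51 and 65 counts against 0 and 2, VTCN1 had 96 and 81 against 5 and 7, and GABRP, which lost its call with library size, had 154 and 146 against 132 and 88. The part of trophoblast-like or amnion-like cells in the level of DNMT3L was not tested.

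TET1, the oxygenase that dominates in pluripotent cells, was lower in the primed cells with TMM. TET1-201 (chr10:68560337-68694487, plus strand), the only annotated transcript, had 2532 and 3282 counts in the naïve replicates and 1940 and 2232 in the primed replicates, or 110 and 129 CPM against 65.8 and 72.7 CPM. The states did not overlap. This gave a log2 fold change of −0.78 ± 0.15 (edgeR adjusted p = 8.05e-06), and it was −0.15 and not called with library size in place of TMM.

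A large share of these alignments lay on COX20P1, a processed pseudogene of the mitochondrial assembly gene COX20 in the intron between exons 3 and 4 of TET1 (chr10:68632371-68632727). The pseudogene was given 897 and 1170 counts in the naïve replicates, 35.4% and 35.6% of the TET1 count, and 406 and 514 counts in the primed replicates, 20.9% and 23.0%. Without them TET1 had 1635 and 2112 counts in the naïve replicates and 1534 and 1718 in the primed replicates. With TMM the log2 fold change was then −0.51 ± 0.15 and still past the threshold, a setting added after the counts of the pseudogene were seen. With library size these remaining counts were not fitted. COX20 itself, on another chromosome, had 1041 and 1382 counts against 789 and 918, with a log2 fold change of −0.81 ± 0.15. Reads that align to both COX20 and COX20P1 may be counted at both places, and how many did so was not tested.

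**Figure D2:**
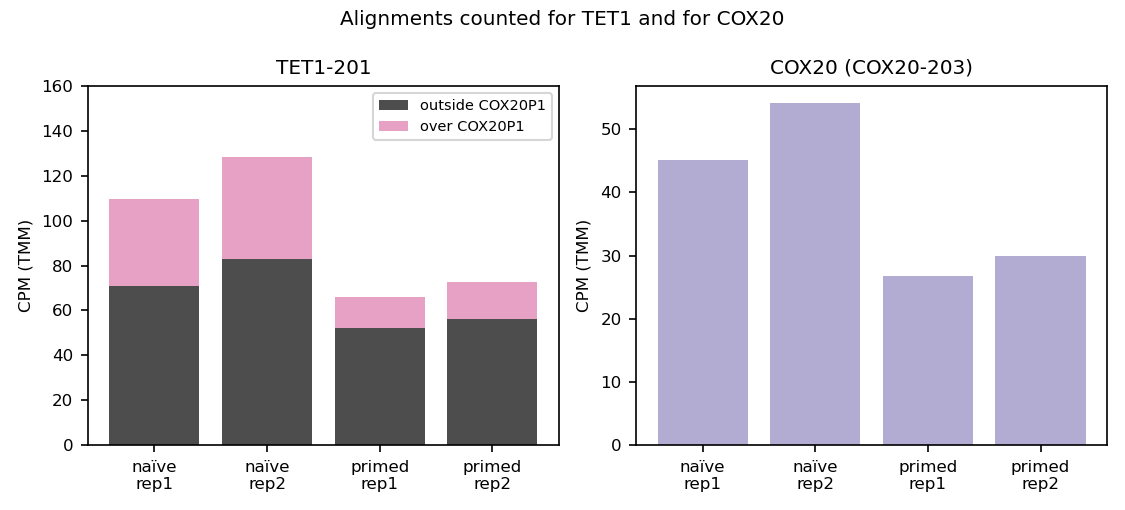
CPM (TMM) counted for TET1-201 (left, stacked into alignments over COX20P1 and outside it) and for COX20-203 (right) in each library. The COX20P1 part makes up 35.4% and 35.6% of the naïve bars and 20.9% and 23.0% of the primed bars.

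TET2, which lacks the CXXC domain of TET1 and TET3, had the largest decrease among the erasers. TET2-207 had 129 and 198 counts in the naïve replicates and 64 and 72 in the primed replicates, or 5.59 and 7.75 CPM against 2.2 and 2.3 CPM. Even the lower naïve library was above both primed libraries. The log2 fold change was −1.56 ± 0.23 (edgeR adjusted p = 7.75e-08), and with library size in place of TMM it was −0.93 and still called. TET2-AS1, an antisense lncRNA gene inside the span, had 7 and 15 counts in the naïve replicates and 9 and 1 in the primed replicates. TET2 had no tested transcript without overlap of another gene.

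TET3, the oxygenase known from the fertilised egg, did not pass the test. TET3-202 had 155 and 164 counts in the naïve replicates and 219 and 226 in the primed replicates, or 6.71 and 6.42 CPM against 7.43 and 7.36 CPM. The fold change on the log2 scale was 0.17 ± 0.19 (edgeR adjusted p = 0.414, 95% interval −0.19 to 0.54). It was past the threshold with library size in place of TMM, at 0.81, and on TET3-201, the transcript without overlap of another gene, at 0.59 with 81, 109, 160 and 181 counts.

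TDG, the glycosylase of active demethylation, had overlapping states. TDG-202 had 321 and 382 counts in the naïve replicates and 444 and 450 in the primed replicates, or 13.9 and 15.0 CPM against 15.1 and 14.7 CPM. The log2 fold change was 0.04 ± 0.16 (edgeR adjusted p = 0.822, 95% interval −0.27 to 0.35), and it was 0.68 and called with library size in place of TMM, a value below the median of all genes under that scaling. The pseudogene TDGP1 had 155 and 216 counts against 293 and 287, so reads of TDG that also aligned there may be counted at both places.

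**Figure D3:**
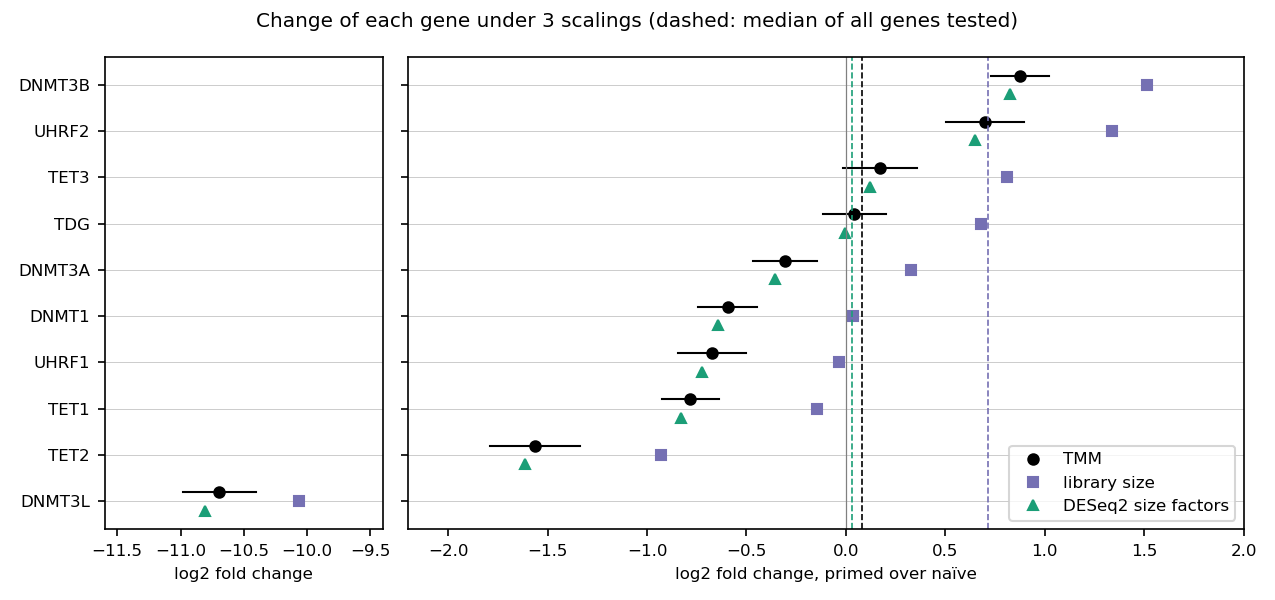
Log2 fold change, primed over naïve, of the 10 genes with TMM (bar: standard error), library size and DESeq2 size factors, and, as dashed lines, the median of all genes tested under each. DNMT3L has an axis of its own at the left. The medians are 0.08 with TMM and 0.72 with library size, and DNMT1 and DNMT3A change side of 0 with library size while TDG does with DESeq2.

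To compare levels between genes, the CPM of the main annotated (MANE Select) transcript was divided by its exonic length in kb. In the naïve cells the order of these levels began with DNMT3L at 125 ± 24.5 CPM per kb (SD, n = 2), DNMT1 at 14.1 ± 2.04, TET1 at 12.4 ± 1.39 and DNMT3B at 10.9 ± 0.176. TDG at 4.53, UHRF1 at 3.22, DNMT3A at 1.6 and UHRF2 at 1.31 CPM per kb followed, with TET2 at 0.654 and TET3 at 0.545 last. DNMT1 and TET1 were the neighbours whose libraries overlapped. Without the alignments over COX20P1 TET1 was at 7.99 ± 0.875 CPM per kb, below DNMT3B. Counts cover whole spans, introns included, so the order depends on the division by exonic length. By undivided CPM, with the alignments over COX20P1 included, TET1 ranked 2 and DNMT1 ranked 3 in both states. DNMT3A ranked 5 by undivided CPM and 7 after the division in both states.

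In the primed cells DNMT3B came first at 20.03 ± 1.34 CPM per kb (SD, n = 2), ahead of DNMT1 at 8.74 ± 0.346 and TET1 at 7.21 ± 0.506, or 5.62 ± 0.288 without the alignments over COX20P1. TDG followed at 4.67, UHRF2 at 2.12, UHRF1 at 2.01, DNMT3A at 1.29, TET3 at 0.613 and TET2 at 0.236 CPM per kb, and DNMT3L was last at 0.0726. Each of these neighbours differed in the same direction in every pair of primed libraries. DNMT3B thus stood above DNMT1 in the primed cells and below it in the naïve cells, and per kb TET3 passed TET2. By undivided CPM the naïve libraries of TET2 (5.59 and 7.75 CPM) and TET3 (6.71 and 6.42 CPM) overlapped, so their naïve order is uncertain. UHRF2 lay only slightly above UHRF1, and the antisense lncRNA span held 42.2% and 45.6% of its primed count. By undivided CPM the primed mean of UHRF1 was above that of UHRF2, at 7.90 against 7.59 CPM, so the order of UHRF1 and UHRF2 is uncertain. DNMT3B was above DNMT3A in both states.

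Isoform usage was then examined, where each isoform is compared with the other isoforms of its gene. Of the 124 transcripts 121 could be tested, and 0 passed an adjusted p under 0.05 (edgeR diffSpliceDGE) together with a change in isoform fraction (dIF) beyond 0.1, against 0.545% of the 159577 isoforms tested. At an unadjusted p under 0.05 there were 3. Without the dIF threshold 2 passed, DNMT3A-206 and TDG-204, against 4.27% of all isoforms. An isoform was counted over its whole span, and 37 of the 124 had the same counts as another isoform of their gene in all libraries. An alignment thus counted for every isoform it overlapped, which spread the fractions over many isoforms. The largest fraction of a DNMT1 isoform, that of DNMT1-221, was between 13.9% and 14.5% in the libraries. A dIF beyond 0.1 was therefore hard to reach in such genes, and the 0 does not show that usage was unchanged.

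DNMT3A-206 covers the first 61139 bases of DNMT3A, upstream of the exons for the catalytic domain. It had 15 and 14 counts in the naïve replicates and 37 and 55 in the primed replicates, or 4.50% and 3.49% of the count of DNMT3A-201 against 9.69% and 15.7%. Both primed libraries were higher, and the usage changed by 1.73 on the log2 scale (edgeR diffSpliceDGE adjusted p = 0.00263), with a dIF of 0.75 percentage points. The adjusted p ranged from 6.39e-05 to 0.514 when a library was left out, and it missed the threshold without naïve replicate 1, naïve replicate 2 or primed replicate 2. A fit with a replicate block gave 0.0513.

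The counts of the other DNMT3A isoforms nested in each other. DNMT3A-203 and DNMT3A-217, from the inner start, had the same counts in every library, at 89.2% and 91.0% of the count of DNMT3A-201 in naïve replicates and 79.6% and 69.7% in primed replicates. Conversely, the alignments of the distal-start transcript DNMT3A-204 that did not reach into DNMT3A-203 numbered 25 and 27 in the naïve replicates and 59 and 78 in the primed replicates. These were 7.76% and 6.89% of its count against 16.3% and 24.2%. The share was higher in both primed libraries. The part of DNMT3A-204 upstream of DNMT3A-203 overlaps another gene, whose alignments were not separated from these. How many of these alignments, or of those of DNMT3A-206, came from that gene was not tested.

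DNMT3B showed a smaller difference of the same kind. DNMT3B-202, DNMT3B-203 and DNMT3B-204, which differ in internal exons, had identical counts, so the forms with and without catalytic exons cannot be told apart here. The alignments of DNMT3B-202 that did not reach into DNMT3B-201, the transcript from the inner start, numbered 111 and 96 in the naïve replicates and 330 and 458 in the primed replicates. This was 10.3% (95% Wilson interval 8.61% to 12.2%) and 7.86% (6.48% to 9.5%) of its count against 13.5% (12.2% to 15.0%) and 16.4% (15.1% to 17.8%), with all primed values above all naïve values, although the intervals of naïve replicate 1 and primed replicate 1 nearly met. DNMT3B-201 itself had 969 and 1126 counts against 2108 and 2333.

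Such a share can be had for 4499 genes with an inner start at least 5000 bases downstream and a shared 3′ end, a comparison added after these values were seen. It was above both naïve libraries in both primed libraries for 27% of them, and below for 40.7%. A difference of means at least as large as that of DNMT3A, 12.9 percentage points, occurred in 7.98% of these genes, and at least as large as that of DNMT3B, 5.91 points, in 17.3%. Of 7 genes of the set with such a pair, DNMT3A, DNMT3B and UHRF2 had the higher share in primed libraries, and for UHRF2 it was 51.4% and 50.0% against 62.6% and 66.8%. The upstream stretch of UHRF2 holds the antisense lncRNA, with 42 and 45 counts against 97 and 103, whose reads cannot be told apart from those of UHRF2. TDG and DNMT3L had the lower share, the latter with at most 4 counts in a primed library. An alignment that ran through both stretches was counted for both transcripts, so these shares do not measure which start was used.

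TDG-204, a short transcript at the 3′ end of TDG, was the other isoform past the adjusted p. It had 48 and 65 counts in the naïve replicates and 152 and 118 in the primed replicates, which was 14.95% and 17.02% of the count of TDG-202 against 34.2% and 26.2%. The usage changed by 0.89 on the log2 scale (edgeR diffSpliceDGE adjusted p = 0.00983), with a dIF of 2.93 percentage points, and the adjusted p ranged from 0.0243 to 0.517 when a library was left out. It missed the threshold without naïve replicate 1, naïve replicate 2 or primed replicate 1.

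The genes that work with these enzymes were taken as a list of 41, all of which passed the filter. Of these, 26 were called, 11 higher and 15 lower in the primed cells, with a median log2 fold change of −0.06 against 0.08 for all genes. Of all genes tested 70% were called, 37.4% higher and 32.6% lower, so the list was called no more often than the background, and the counts of its small groups below are descriptions to be set beside these shares. With library size in place of TMM 24 were higher and 7 lower, and 3 of the 26 (MBD1, USP7 and OGT) turned from lower to higher without being called. Among 8 genes listed as antagonists and limiters, whether of methylation or of its removal, 2 were higher and 5 lower, with a median of −1.55. With library size in place of TMM 2 were higher and 4 lower. DPPA3, which keeps UHRF1 away from chromatin, had 3469 and 3745 counts in the naïve replicates and 10 and 6 in the primed replicates, a log2 fold change of −9.10 ± 0.25. Like DNMT3L, it was near the level of a few counts in the primed libraries.

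The stress-induced genes GADD45A and GADD45B, which have been linked to active demethylation, were also lower. GADD45A had 731 and 781 counts against 93 and 93 (log2 fold change −3.33 ± 0.18), and GADD45B had 355 and 353 against 27 and 24 (−4.10 ± 0.23). QSER1, which shields regulatory regions from de novo methylation together with TET1, went the other way, with 81 and 73 counts in the naïve replicates and 727 and 884 in the primed replicates (3.07 ± 0.19). CXXC4, a regulator of TET2, had 0 counts in both naïve libraries and 33 and 44 counts in the primed libraries.

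Among 6 partners of maintenance methylation 2 were higher and 2 lower. HELLS, the remodeller that opens chromatin for methylation, had 486 and 654 counts on HELLS-202 in naïve replicates and 4897 and 5366 in primed replicates (2.87 ± 0.16). An lncRNA overlaps that span, and on the main transcript HELLS-201 the counts were 456 and 435 against 2290 and 2558 (2.13 ± 0.16). CDCA7L, a relative of the HELLS activator CDCA7, had 690 and 719 counts against 2551 and 3349 (1.75 ± 0.15), and its span overlaps DNAH11, whose counts were 605 and 607 against 2474 and 3325. The other 2 called partners, PCNA and USP7, were lower with TMM, at −0.70 ± 0.15 and −0.38 ± 0.15. With library size in place of TMM, however, PCNA was at −0.06 and not called, USP7 turned to 0.26, and the partners were 3 higher and 0 lower.

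Of 8 readers of methylated DNA 1 was higher and 4 were lower, against 4 higher and 1 lower with library size in place of TMM. The lower ones include ZBTB4, whose replicates disagreed, with 69 and 418 counts in the naïve replicates and 83 and 101 in the primed libraries. Of 5 genes for histone marks that guide de novo methylation 2 were higher and 1 lower, against 4 higher and 1 lower with library size. Of 8 base excision repair genes 0 were higher and 1, POLB, was lower, whereas with library size in place of TMM 7 were higher and 0 lower.

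Of 3 genes that protect imprints, 2 were higher and 1 lower under both scalings. The lower one was ZFP57, which binds methylated imprint control regions, with 470 and 437 counts in the naïve replicates and 14 and 14 in the primed replicates (−5.32 ± 0.25). Of 3 genes of the S-adenosylmethionine cycle 2 were higher and 1, MAT2B, was lower, and MAT2B was not called with library size, at −0.02. MAT2A, which makes the methyl donor, had 170 and 186 counts against 534 and 418 (1.11 ± 0.18), and its span overlaps GGCX.

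**Figure D4:**
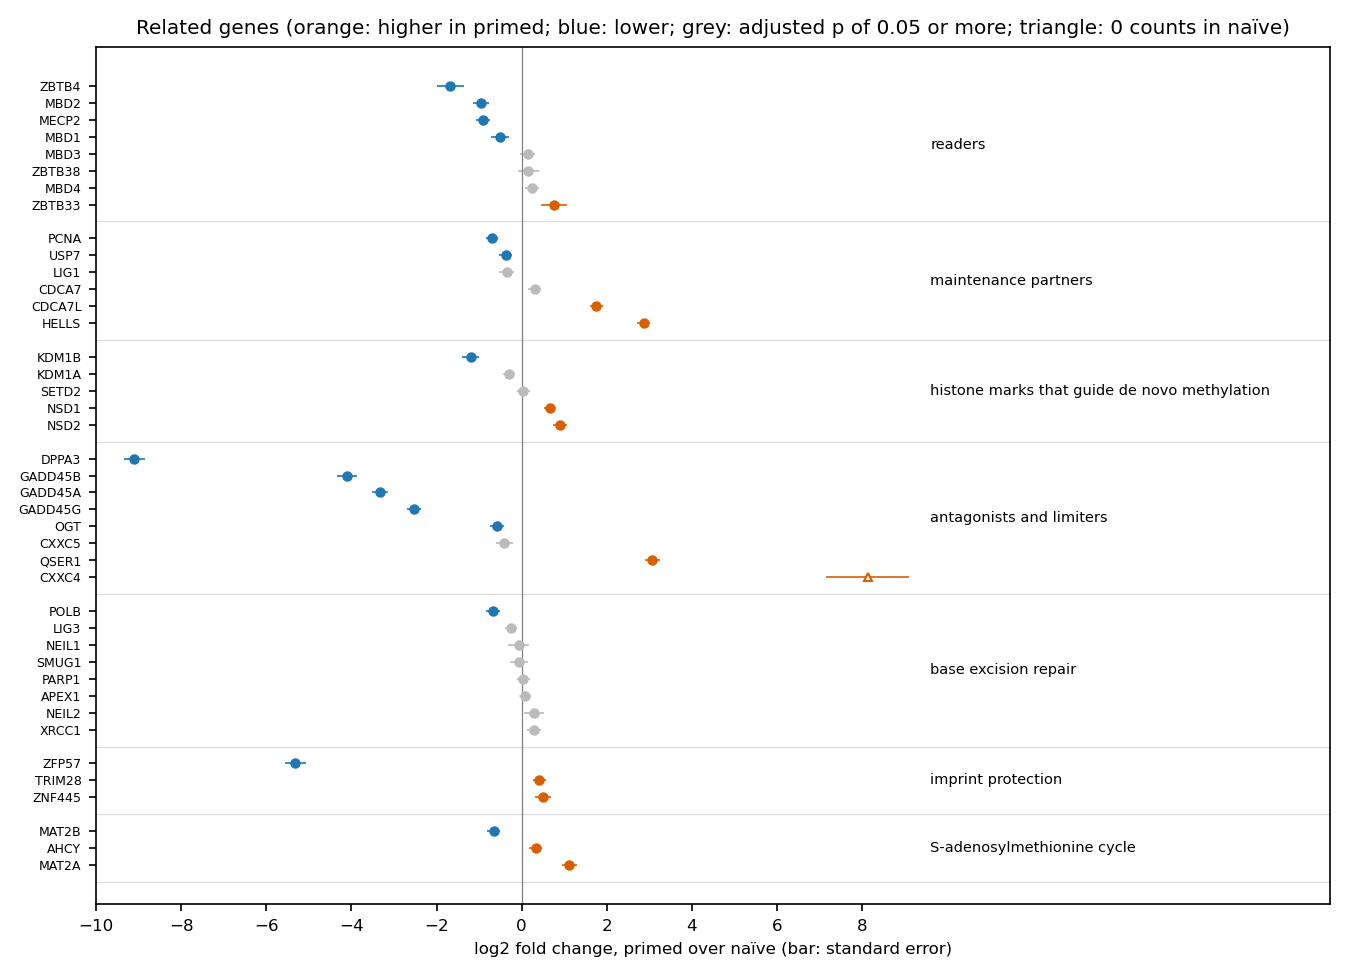
Log2 fold change, primed over naïve (bar: standard error), of 41 related genes by role, with TMM. Of these, 11 are called higher (orange) and 15 lower (blue), DPPA3 lies lowest at −9.10, and the fitted value of CXXC4 (triangle), with 0 counts in the naïve libraries, depends on the fit and is no bound.

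The genes whose patterns were nearest to DNMT3B over the 4 libraries, by the distance between centred log2 CPM values, were GALNT7 at 0.0152, ARMCX5-GPRASP2 at 0.0340 and LYPLAL1 at 0.0352. GALNT7, a glycosyltransferase gene, had 179 and 204 counts in the naïve replicates and 411 and 470 in the primed replicates. Nearest to DNMT3L were DNMT3L-AS1 at 0.432, which lies inside it, and the imprinted noncoding genes MEG3 at 0.510 and MIR675 at 0.531. MEG3 had 1804 and 1985 counts in the naïve replicates and 0 in both primed libraries, and MIR675, whose span lies inside the noncoding gene H19, had 1694 and 1250 counts against 0 in both. These distances rest on 4 libraries in 2 states and are a description.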

How the data were processed

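Complementary DNA of naïve and primed H1 hESCs was sequenced as 4 Nanopore ligation libraries, 2 per state. The authors aligned reads to GRCh38 with minimap2 and deposited raw counts per transcript from featureCounts 2.0.0 with the Ensembl 105 annotation. Counts cover whole transcript spans, introns included and strand ignored. Every overlapping transcript and every aligned place adds a count for a read, so counts are not molecules, and counting intervals cover counting error only.

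Symbols, exonic lengths and MANE Select transcripts came from GENCODE 44, matched by transcript ID, leaving out 2283 of 244825 transcripts with between 0.840% and 1.15% of the counts. The gene count was that of the transcript with the largest mean count. Genes with 10 or more counts in 2 or more libraries were fitted together by the quasi-likelihood test of edgeR 4.0.16 in R 4.3.3, with TMM, two-sided, and Benjamini-Hochberg adjustment over 27633 genes. Gene-level library sizes were between 23542387 and 30978742 counts, with TMM factors from 0.779 to 1.25. Isoforms were tested by diffSpliceDGE. The 95% intervals of fold changes come from the standard errors. Scripts were tested on simulated counts.

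Named are all 10 genes, the 4 related genes with the largest called change in each direction, with a mean count of at least 50 and states that do not overlap, and the 3 genes nearest in pattern to DNMT3B and to DNMT3L. Of genes that overlap a member or are its pseudogenes, those described with the member are named. The pseudogenes DNMT3AP1, UHRF2P1 and TET1P1 had at most 3 counts in any library. CXXC4, PCNA, USP7, ZBTB4, POLB, MAT2B, MBD1, OGT and COX20 were added once their values had been seen. The genes and lists were chosen with earlier results of these data known. Alternatives were library size, DESeq2 1.42.0, other filters, a replicate block, other gene counts and each library left out. The labels do not say whether replicate numbers pair the libraries.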

Additional observations from a re-analysis of the deposited data

How the results depend on the processing

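The number of the 10 genes called was 7 with TMM and between 6 and 7 under the alternatives that could test at least 9 of them, the range when a library was left out included. On transcripts without overlap of another gene 4 of the 6 genes that have such a transcript were called. A replicate block gave 7, and of the related genes 29 were called against 26, while 0 isoforms were called. The deviations of same-numbered replicates correlated at 0.0406, which cannot settle whether same-numbered libraries were handled together. With library size in place of TMM the log2 fold changes turned to 0.038 for DNMT1 and 0.33 for DNMT3A, the calls of DNMT1, UHRF1 (−0.04) and TET1 (−0.15) were lost, and TET3 (0.81) and TDG (0.68) were called. TDG turned to −0.0065 with DESeq2 and ranged from −0.070 to 0.227 when a library was left out, below 0 without naïve replicate 1. DNMT1 lost its call without primed replicate 2. Without the dIF threshold 2 isoforms were called. Without a naïve library DNMT3L did not pass the filter on counts. The number of related genes called was between 20 and 31 under all alternatives, and between 20 and 24 when a library was left out. The cause of these changes was not tested, except that the filter and the transcripts without overlap leave fewer genes.

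With 2 libraries a state, and counts over spans that share alignments, small changes of fold and internal-exon isoforms are beyond what these data can show.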
